A study of Mus musculus with 12 samples.

Results

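The Sox genes described here were Sox1, Sox2, Sox3, Sox4, Sox5, Sox6, Sox8, Sox9, Sox10 and Sox11, 10 genes chosen by symbol among the 24421 listed in each of the 2 deposited expression tables of a mouse ependymoma study. Each of the 10 symbols was present in both tables. Bulk polyA RNA of 12 libraries was sequenced, 3 in each of 4 groups. The ETV5 tumours were ZFTA-RELA ependymomas that overexpressed the human variant of ETV5, an ETS family transcription factor. The NPY tumours were ZFTA-RELA ependymomas that overexpressed the human variant of NPY, the neuropeptide Y precursor. The control tumours carried ZFTA-RELA alone, a fusion that joins ZFTA to the NF-kB subunit RELA and drives ependymomas of the forebrain. The reference tissue was cortex of the wild-type genotype without tumour. All 3 tumour groups shared the fusion, while the labels state no age, no promoter for the transgenes and no method of inducing tumours.

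Sox proteins are transcription factors that bind DNA through an HMG box, a domain that lies in the minor groove and bends the helix. In the brain the SoxB1 genes (Sox1, Sox2, Sox3) keep neural progenitors undifferentiated, the SoxC genes (Sox4, Sox11) act in newborn neurons and other immature cells, the SoxD genes (Sox5, Sox6) modulate partners in neuronal and oligodendrocyte lineages, and the SoxE genes (Sox8, Sox9, Sox10) are used in glia. Sox9 marks radial glia and astrocytes, and Sox10 marks the oligodendrocyte lineage, where Sox8 accompanies it.

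Library depth was 5962376 to 11291057 reads. Levels are given as CPM (a gene's reads per 1000000 reads of the library) in replicates 1, 2 and 3 of a group, and levels of different genes are compared as CPM per kb of GENCODE M21 exons. The labels do not say whether replicates came from separate animals, so the p-values speak of the spread among these libraries. Library codes began with EC in ETV5 replicate 3 and the 3 NPY libraries and with DS in the other libraries; the labels do not say what the codes mean, and in comparisons of NPY tumours with control tumours or cortex the code cannot be told apart from the group. The summed level of 10 cortical excitatory neuron genes was 106, 690.0 and 280.4 CPM in ETV5 tumours, 164, 175 and 127 CPM in NPY tumours, 525, 584 and 970.4 CPM in control tumours and 6878, 7554 and 6125 CPM in cortex, so the cortex libraries expressed the markers of their tissue. The cortex libraries also held choroid plexus RNA, given below with the other cell types. The mouse Etv5 and Npy rows do not measure the human transgenes, and group membership follows the labels.

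The coding sequences show how close the members are where the family is most alike. The stretches printed next are 60 bases of the HMG box, read from the GENCODE M21 transcripts (mm10) and starting at the same conserved codon. They are shown for SoxB1 and SoxE, the 2 subgroups in which members went in opposite directions, and capitals mark bases that differ from Sox2.
Sox2, chr3:34650548-34650607, plus strand: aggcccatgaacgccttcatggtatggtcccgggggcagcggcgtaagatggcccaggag
Sox1, chr8:12396517-12396576, plus strand: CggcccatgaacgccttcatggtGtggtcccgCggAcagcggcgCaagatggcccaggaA
Sox3, chrX:60892936-60892995, minus strand: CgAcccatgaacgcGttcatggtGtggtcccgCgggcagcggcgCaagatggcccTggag
Sox8, chr17:25570163-25570222, minus strand: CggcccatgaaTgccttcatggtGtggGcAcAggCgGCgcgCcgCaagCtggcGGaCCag
Sox9, chr11:112782903-112782962, plus strand: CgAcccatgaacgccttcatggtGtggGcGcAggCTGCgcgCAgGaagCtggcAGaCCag
Sox10, chr15:79163342-79163401, minus strand: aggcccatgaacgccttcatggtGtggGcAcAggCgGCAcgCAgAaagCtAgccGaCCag
Identity to Sox2 over this stretch was 90% in Sox1, 88.3% in Sox3, 73.3% in Sox8 and Sox10 and 70% in Sox9. Among the members not printed it was 73.3% in Sox4, 71.7% in Sox11, 61.7% in Sox5 and 60% in Sox6. Over the 45 pairs of members the longest identical run between their transcripts was 12 to 48 bases with a median of 19, and the longest was shared by Sox4 and Sox11.

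Most members differed between tumours and cortex. In control tumours 6 of 10 rose (Sox2, Sox3, Sox4, Sox6, Sox9, Sox10) and 2 fell (Sox1, Sox8) by limma at an adjusted p under 0.05. Over all 14621 genes tested 72% were called, 35.7% higher and 36.2% lower, so the share of members called was near the background. In ETV5 tumours 5 members rose (Sox3, Sox4, Sox6, Sox9, Sox10) and Sox1 and Sox8 fell, against a background of 63.8% called among 14493 genes, 31.8% higher and 32% lower. In NPY tumours the called members had the same names and directions as in ETV5 tumours, against a background of 71% called among 14613 genes, 35.1% higher and 35.8% lower. These 3 comparisons share their cortex libraries. The median log2 fold change of the members was 0.89 in ETV5 tumours, 0.44 in NPY tumours and 0.70 in control tumours, beside 0.012, -0.013 and -0.0032 over all genes tested. In these bulk samples fewer cells of a type and less RNA per cell cannot be told apart. Scaling by total reads in place of size factors moved the median of all genes by 0.18 in ETV5 tumours, 0.16 in NPY tumours and 0.17 in control tumours on the log2 scale, and fold changes below are relative to the size-factor scale.

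**Figure D1:**
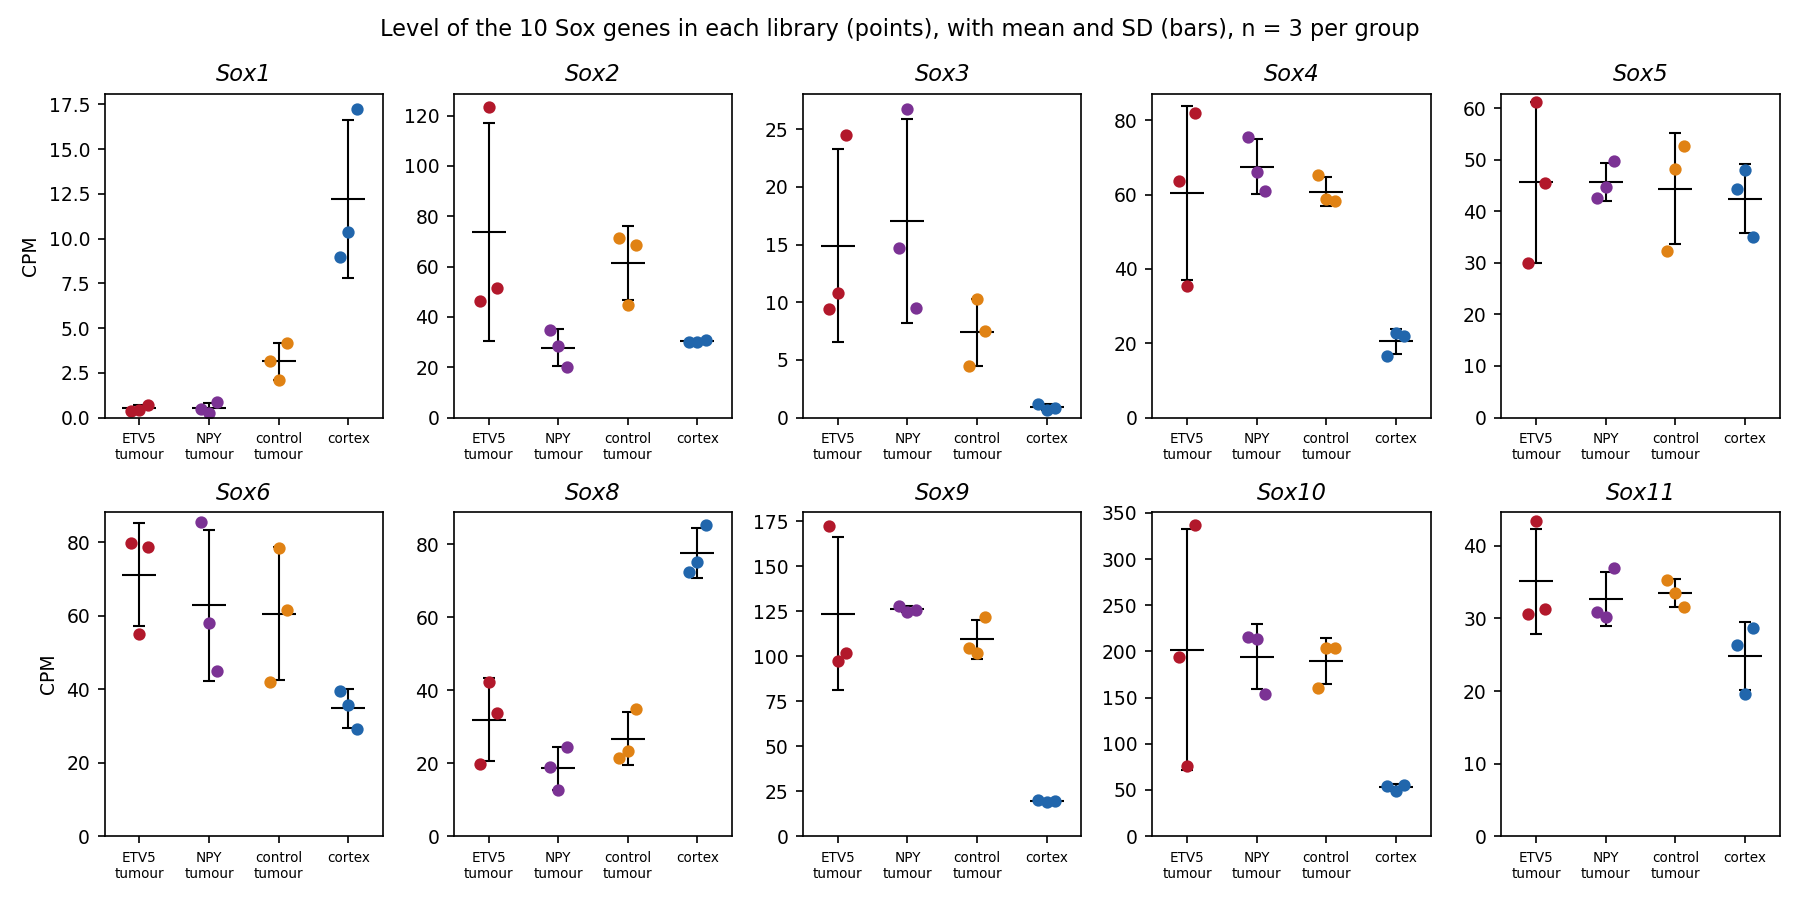
CPM of each of the 10 Sox genes (vertical axes, linear, from 0) in each library (points) of ETV5 tumours, NPY tumours, control tumours and cortex, with mean and SD as bars (n = 3 libraries per group). Sox9 and Sox10 stood above cortex in each of the 9 tumour libraries, and Sox1 and Sox8 stood below it in each.

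Among the SoxB1 genes, Sox2 in NPY tumours lay on both sides of the cortex range and below the other tumours, though not past the test between tumours. Sox2 (chromosome 3, 34650405 to 34652461, plus strand) maintains stemness in neural progenitors and is a gene with a lone exon. It stood at 46.3, 124 and 51.4 CPM in ETV5 tumours, 34.7, 28.6 and 20.1 CPM in NPY tumours, 71.5, 44.6 and 68.5 CPM in control tumours and 29.96, 30.02 and 30.9 CPM in cortex. Each ETV5 and each control library lay above each NPY and each cortex library, while 1 NPY library was above the cortex range and 2 were below it, and ETV5 replicate 2 was far above the other libraries. Against cortex the log2 fold change was 0.95 in ETV5 tumours (SE 0.37, adjusted p = 0.0589, not called), -0.32 in NPY tumours (SE 0.22, adjusted p = 0.219) and 0.82 in control tumours (SE 0.17, adjusted p = 0.00277). Without ETV5 replicate 2 the ETV5 value was 0.51 and passed (adjusted p = 0.0231), and without ETV5 replicate 1 it was 1.23 and passed (adjusted p = 0.0186). It also passed under scaling by total reads (1.13, adjusted p = 0.0326), by edgeR (1.11, adjusted p = 0.045), by DESeq2 (1.09, adjusted p = 0.019) and with all groups of the table in 1 fit (0.95, adjusted p = 0.0351), which makes 6 of 16 alternatives. The control value kept its size when the 3 groups of the table shared their spread but did not pass there (adjusted p = 0.0627). Sox2 lies inside Sox2ot, a long noncoding gene on the same strand with no exon bases in common in the annotation. Sox2ot had a lower level than cortex in each tumour library, in NPY tumours as in the others, at 12.3, 7.47 and 8.95 CPM in ETV5 tumours, 16.03, 5.36 and 7.54 CPM in NPY tumours, 22.4, 12.7 and 21.4 CPM in control tumours and 30.9, 23.3 and 30.2 CPM in cortex (no test was run on it).

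Sox3 (chromosome X, 60891366 to 60893430, minus strand), the SoxB1 gene of hypothalamic and other midline progenitors, was higher in every tumour group than in cortex. It had 9.45, 10.8 and 24.5 CPM in ETV5 tumours, 14.7, 26.8 and 9.54 CPM in NPY tumours, 4.45, 10.2 and 7.5 CPM in control tumours and 1.21, 0.671 and 0.835 CPM in cortex. No tumour library reached down to the cortex range, which rested on 9, 4 and 6 reads. The log2 fold change against cortex was 3.59 in ETV5 tumours (SE 0.47, adjusted p = 0.000737), 3.82 in NPY tumours (SE 0.45, adjusted p = 0.000197) and 2.66 in control tumours (SE 0.41, adjusted p = 0.0004).

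Sox1 (chromosome 8, 12395295 to 12400126, plus strand), a SoxB1 gene of early neural cells that also stays on in some neurons of the forebrain, went the other way. Its level was 0.394, 0.448 and 0.709 CPM in ETV5 tumours (3, 3 and 8 reads), 0.486, 0.243 and 0.859 CPM in NPY tumours (4, 2 and 9 reads), 3.18, 2.09 and 4.15 CPM in control tumours and 9.0, 10.4 and 17.3 CPM in cortex. Cortex was highest, control tumours were intermediate without touching either side, and the ETV5 and NPY libraries lay together below 1 CPM. Against cortex it fell, with log2 fold changes of -4.40 in ETV5 tumours (SE 0.40, adjusted p = 0.000198), -4.45 in NPY tumours (SE 0.46, adjusted p = 9.82e-05) and -2.08 in control tumours (SE 0.34, adjusted p = 0.000586). The size of the fall at so few reads depends on the pseudocount: with 5 in place of 1 it was -3.56 in ETV5 tumours and -3.61 in NPY tumours, still past the threshold. A set of 8 interneuron genes showed a like order of groups, with a summed level of 22.7, 129 and 42.6 CPM in ETV5 tumours, 14.3, 11.6 and 27.9 CPM in NPY tumours, 83.4, 63.2 and 163 CPM in control tumours and 874, 874 and 1087 CPM in cortex. The exception was ETV5 replicate 2, with interneuron genes in the control range and Sox1 at the level of the other ETV5 libraries. Of the 8 genes, Dlx1 had 0 reads in the NPY libraries and no other gene had 0 reads across a whole group. The order of groups was not particular to interneuron genes. Cortical excitatory neuron genes had mean sums of 359 CPM in ETV5, 155 CPM in NPY and 693 CPM in control tumours and 6852 CPM in cortex. Deep layer neuron genes had mean sums of 176, 129, 188 and 431 CPM in the same groups, with overlap between tumour groups. The part of neurons in the Sox1 difference was not tested.

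Of the SoxC genes Sox4 rose and Sox11 passed no test. Sox4 (chromosome 13, 28948919 to 28953713, minus strand), a regulator of survival and differentiation in immature cells, had 63.8, 35.4 and 82.0 CPM in ETV5 tumours, 75.5, 66.0 and 61.0 CPM in NPY tumours, 65.2, 58.9 and 58.4 CPM in control tumours and 16.7, 22.8 and 21.99 CPM in cortex. Every tumour library exceeded every cortex library, with ETV5 replicate 2 the nearest to cortex. It rose by 1.30 in ETV5 tumours (SE 0.34, adjusted p = 0.0144), 1.56 in NPY tumours (SE 0.18, adjusted p = 0.000174) and 1.40 in control tumours (SE 0.16, adjusted p = 7.9e-05) on the log2 scale. In ETV5 tumours the call was lost without cortex replicate 1 (1.15, adjusted p = 0.055). Over 54.6% of its exon bases an opposite-strand noncoding gene, Gm26735, is annotated, and no source used here states whether counting used strand, so reads of the pair cannot be told apart.

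Sox11 (chromosome 12, 27334264 to 27342574, minus strand), the SoxC gene of differentiating neurons, had 30.6, 43.5 and 31.3 CPM in ETV5 tumours, 30.8, 30.2 and 37.0 CPM in NPY tumours, 35.4, 33.6 and 31.6 CPM in control tumours and 26.3, 19.6 and 28.7 CPM in cortex. In CPM the tumour libraries lay slightly above cortex without overlap, whereas on the size-factor scale the groups overlapped. The log2 fold change was 0.31 in ETV5 tumours (SE 0.21, adjusted p = 0.236), 0.24 in NPY tumours (SE 0.18, adjusted p = 0.253) and 0.27 in control tumours (SE 0.16, adjusted p = 0.163), and scaling by total reads made the control value 0.44, with an adjusted p of 0.0421. Of 9 immature neuron genes listed beside the SoxC pair 8 were tested in control tumours against cortex: 7 fell and 1 rose, with a median of -3.25. The share of all genes called lower there was 36.2%. The gene that rose was Tead2, a TEAD factor that SoxC proteins are known to regulate, at 145, 185 and 112 CPM in ETV5 tumours, 226, 117 and 194 CPM in NPY tumours, 79.8, 141 and 137 CPM in control tumours and 5.51, 3.52 and 3.20 CPM in cortex. Stmn2, a microtubule regulator of neurons, was among those that fell, with a log2 fold change of -3.58 in control tumours against cortex (SE 0.27, adjusted p = 6.43e-06).

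The SoxD genes showed small differences. Sox5 (chromosome 6, 143828425 to 144781977, minus strand), which controls the timing of deep layer neuron production in the developing cortex, had 30.1, 61.3 and 45.4 CPM in ETV5 tumours, 42.5, 44.8 and 49.7 CPM in NPY tumours, 32.3, 48.2 and 52.7 CPM in control tumours and 44.3, 48.0 and 35.1 CPM in cortex. The ranges of the 4 groups overlapped. No call was made against cortex, with log2 fold changes of -0.13 in ETV5 tumours (SE 0.29, adjusted p = 0.716), -0.05 in NPY tumours (SE 0.16, adjusted p = 0.798) and -0.13 in control tumours (SE 0.21, adjusted p = 0.604), each turning positive under scaling by total reads (0.055, 0.11 and 0.045). Of 7 deep layer neuron genes 6 fell and none rose in control tumours against cortex, with a median of -2.87, beside 36.2% of all genes called lower. Tbr1, a deep layer transcription factor on that list, was at 0.656, 5.68 and 1.42 CPM in ETV5 tumours, 0.364, 0.365 and 0.382 CPM in NPY tumours, 5.29, 5.28 and 12.3 CPM in control tumours and 93.0, 114 and 88.3 CPM in cortex.

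Sox6 (chromosome 7, 115470872 to 116038796, minus strand), a SoxD gene of interneurons, oligodendrocyte precursors and cartilage, had 79.8, 55.0 and 78.6 CPM in ETV5 tumours, 85.4, 57.9 and 45.0 CPM in NPY tumours, 41.9, 78.3 and 61.4 CPM in control tumours and 39.4, 35.7 and 29.1 CPM in cortex. The 3 tumour groups overlapped widely, and in CPM the lowest tumour library, control replicate 1, was just above the highest cortex library. On the size-factor scale control tumours overlapped with cortex, while ETV5 and NPY tumours did not. It rose by 0.84 in ETV5 tumours (SE 0.21, adjusted p = 0.0116), by 0.65 in NPY tumours (SE 0.25, adjusted p = 0.0495) and by 0.59 in control tumours (SE 0.24, adjusted p = 0.0491) on the log2 scale. The NPY and control calls were marginal. In control tumours the call was lost without cortex replicate 1, 2 or 3 or control replicate 2 or 3, where the values ran between 0.36 and 0.68, and in NPY tumours without cortex replicate 1, 2 or 3 or NPY replicate 1 or 2, where they ran between 0.41 and 0.73. With no filter on low counts, limma-voom or all groups in 1 fit neither call was made (adjusted p = 0.0515 to 0.0633 in NPY tumours and 0.0525 to 0.0712 in control tumours), and the NPY call was also lost with a pseudocount of 0.5 (adjusted p = 0.0501). All 8 interneuron genes fell in control tumours against cortex, with a median of -3.60, beside 36.2% of all genes called lower.

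Among the SoxE genes Sox9 and Sox10 were higher in tumours than in cortex and Sox8 was lower. Sox9 (chromosome 11, 112782224 to 112787760, plus strand), the factor of radial glia, astrocytes and cartilage, had 173, 97.1 and 102 CPM in ETV5 tumours, 128, 125 and 126 CPM in NPY tumours, 105, 102 and 122 CPM in control tumours and 20.0, 18.8 and 19.8 CPM in cortex. The lowest tumour library stood far above the highest cortex library, and the NPY libraries were almost identical. It rose by 2.42 in ETV5 tumours (SE 0.23, adjusted p = 0.000221), 2.52 in NPY tumours (SE 0.11, adjusted p = 1.87e-06) and 2.30 in control tumours (SE 0.11, adjusted p = 1.23e-06) on the log2 scale.

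Sox10 (chromosome 15, 79154908 to 79165240, minus strand), which drives oligodendrocyte differentiation and myelin genes, had 194, 75.5 and 337 CPM in ETV5 tumours, 216, 214 and 154 CPM in NPY tumours, 161, 204 and 204 CPM in control tumours and 54.7, 48.6 and 55.1 CPM in cortex. Tumour and cortex libraries did not overlap, but ETV5 replicate 2 was near cortex and ETV5 replicate 3 was the highest library of all 12. The log2 fold change was 1.505 in ETV5 tumours (SE 0.52, adjusted p = 0.04), 1.70 in NPY tumours (SE 0.17, adjusted p = 7.61e-05) and 1.66 in control tumours (SE 0.13, adjusted p = 7.44e-06). The ETV5 call was lost without cortex replicate 1, 2 or 3, ETV5 replicate 1 or ETV5 replicate 3, with values of 0.99 to 1.53 there, and without ETV5 replicate 2 it was 2.10 (adjusted p = 0.00121). Among the libraries with a DS code alone, which leaves out ETV5 replicate 3, it was 0.99 (adjusted p = 0.0805), whereas Sox1, Sox3, Sox4, Sox6, Sox8 and Sox9 stayed called.

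Sox8 (chromosome 17, 25565892 to 25570686, minus strand), the SoxE gene that supports Sox10 in oligodendrocytes, fell. It had 19.8, 42.1 and 33.8 CPM in ETV5 tumours, 19.1, 12.5 and 24.3 CPM in NPY tumours, 21.5, 23.4 and 34.9 CPM in control tumours and 72.4, 75.1 and 85.2 CPM in cortex. Each tumour library lay well below each cortex library. On the log2 scale it fell by 1.52 in ETV5 tumours (SE 0.29, adjusted p = 0.00383), by 2.26 in NPY tumours (SE 0.23, adjusted p = 9.39e-05) and by 1.74 in control tumours (SE 0.18, adjusted p = 3.79e-05). An antisense gene in the tables, 2810468N07Rik, covers 10.6% of its exon bases.

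**Figure D2:**
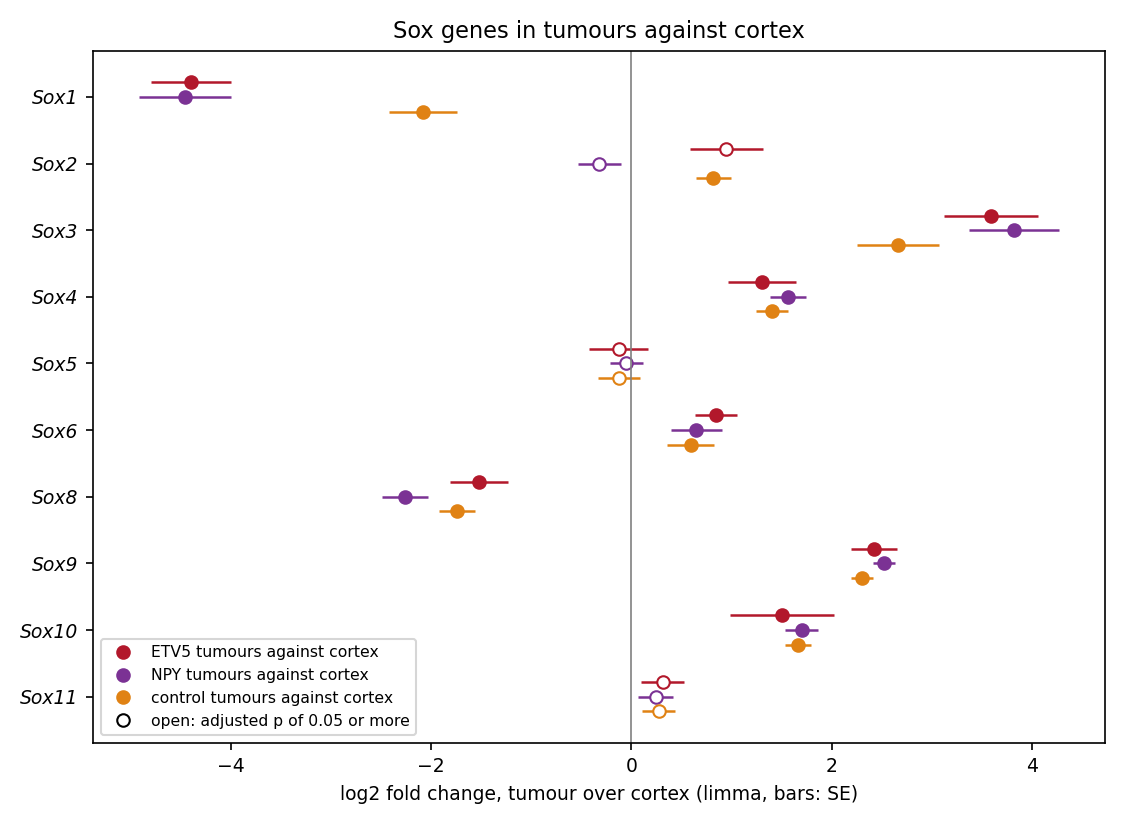
Log2 fold change (horizontal axis) of each Sox gene in ETV5, NPY and control tumours over cortex from limma, with bars of 1 SE; filled points had an adjusted p under 0.05. Sox9 stood between 2.30 and 2.52 in the 3 tumour groups, Sox8 between -2.26 and -1.52, and Sox2 is the member for which a tumour group, NPY, has a value below 0 while the other groups lie near 0.8 to 1.

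As a share of the summed SoxE level per kb, Sox8 took 5.69, 21.9 and 7.45% in ETV5 tumours, 5.68, 3.86 and 8.81% in NPY tumours, 8.12, 7.61 and 10.4% in control tumours and 50.5, 54.1 and 54.5% in cortex. Sox8 was thus the most abundant SoxE transcript of each cortex library and the least abundant in each tumour library. Sox10 held 57.6 ± 17.8% in ETV5 tumours, 63.2 ± 5.58% in NPY tumours, 63.9 ± 3.12% in control tumours and 36.9 ± 1.79% in cortex (SD, n = 3 each). Sox9 held 30.8 ± 12.04% in ETV5 tumours, 30.7 ± 3.19% in NPY tumours, 27.4 ± 2.47% in control tumours and 10.1 ± 0.508% in cortex. ETV5 replicate 2 again stood apart, with the largest Sox8 share of the tumour libraries and nearly as much Sox9 as Sox10.

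**Figure D3:**
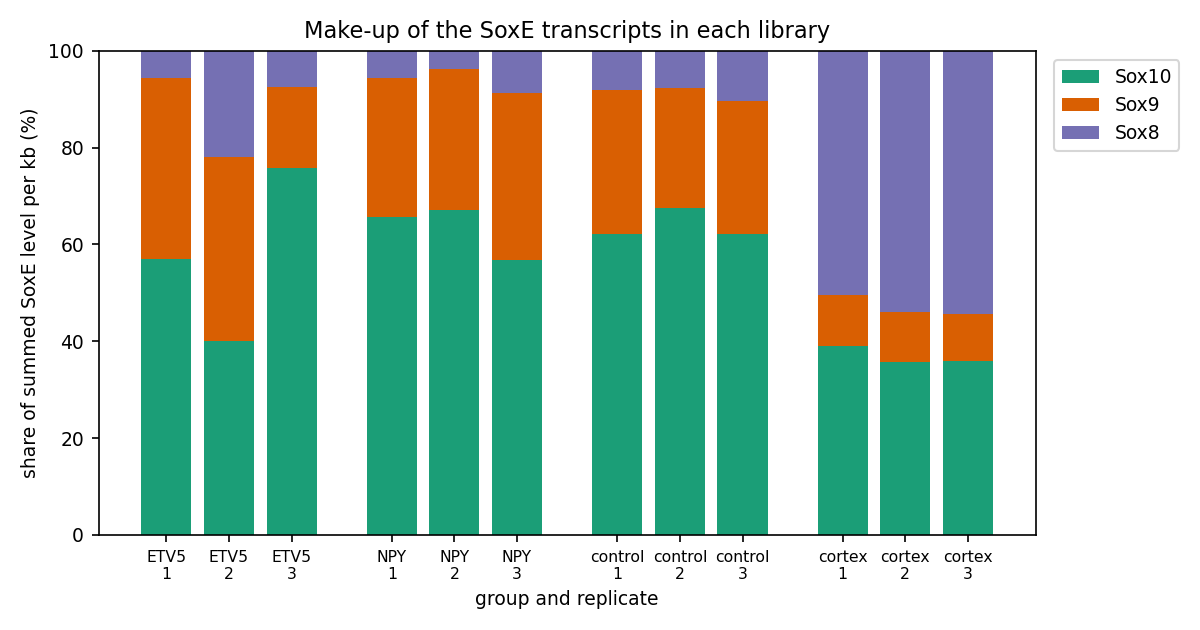
Share (%) of Sox10, Sox9 and Sox8 in the summed SoxE level per kb, 1 stacked bar for each of the 12 libraries by group and replicate. Sox8 fills 50.5 to 54.5% of the cortex bars and 3.86 to 21.9% of the tumour bars.

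Over the 10 members the summed level was 174 ± 33.6 CPM per kb in ETV5 tumours, 147 ± 18.0 in NPY tumours, 155 ± 12.4 in control tumours and 77.2 ± 3.87 in cortex (SD, n = 3 each). In control tumours the order per kb was Sox10 at 62.1 ± 8.13, Sox2 at 29.9 ± 7.16, Sox9 at 26.5 ± 2.65, Sox4 at 12.7 ± 0.794, Sox8 at 8.54 ± 2.33, Sox6 at 4.08 ± 1.23, Sox11 at 4.03 ± 0.227, Sox3 at 3.58 ± 1.40, Sox5 at 3.09 ± 0.745 and Sox1 at 0.650 ± 0.213 CPM per kb. Of the neighbours in that order, Sox2 and Sox9 did not differ beyond their spread, nor did Sox6 and Sox11, Sox11 and Sox3, or Sox3 and Sox5. In cortex Sox8 led at 24.9 ± 2.16 CPM per kb, followed by Sox10 at 17.3 ± 1.19, Sox2 at 14.7 ± 0.258 and Sox9 at 4.72 ± 0.157. SoxE genes made up 59.6 ± 15.4% of the summed level in ETV5 tumours, 68.1 ± 1.56% in NPY tumours, 62.5 ± 3.68% in control tumours and 60.8 ± 0.849% in cortex, and the NPY libraries lay above the control and cortex libraries while ETV5 tumours overlapped with both.

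Between tumour groups no member passed the limma test. In ETV5 tumours against control tumours limma called 0% of 14382 genes (944 had an unadjusted p under 0.05), edgeR and limma-voom also called 0 genes, and DESeq2 called 76. Groups did not overlap in 13.7% of genes there, 6.26% higher and 7.48% lower, and of the members Sox1 alone did not overlap, lower in ETV5 tumours, with a log2 fold change of -2.32 (SE 0.49, unadjusted p = 0.00235, adjusted p = 0.732). DESeq2 called Sox1 (-2.53, adjusted p = 0.0361), and within the DS-coded libraries limma gave -2.54 (adjusted p = 0.649). Sox3 had 0.93 (SE 0.50, adjusted p = 0.733), Sox2 had 0.13 (SE 0.40, adjusted p = 0.958) and Sox10 had -0.16 (SE 0.53, adjusted p = 0.963). Without ETV5 replicate 2, the library with the most Sox2 and the least Sox10 among the tumours with added ETV5, the Sox2 value was -0.31 and the Sox10 value was 0.44. The other 6 members overlapped between these groups, and their lowest adjusted p was 0.856.

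In NPY tumours against control tumours 5.04% of 14425 genes were called, 0.728% higher and 4.31% lower, and no member was among them. That share moves with the libraries: the 727 calls became 138, 1 and 78 without control replicates 1, 2 and 3, and 125 without NPY replicate 1. Groups did not overlap in 31.6% of genes, 15.8% in each direction, and 3 of 10 members were among these, a share near that background. Sox1 was lower in each NPY library (log2 fold change -2.32, SE 0.53, adjusted p = 0.0574), and Sox2 was lower in each (-1.06, SE 0.27, adjusted p = 0.0735). Sox9 was slightly higher in each NPY library (0.30, SE 0.12, adjusted p = 0.208), and Sox3 overlapped (1.22, SE 0.47, adjusted p = 0.185). DESeq2 on the recovered reads called Sox1 (adjusted p = 0.00947) and Sox2 (adjusted p = 0.00695), and limma with a pseudocount of 5 called Sox1 (-1.68, adjusted p = 0.0479). The lowest adjusted p of the other 6 members was 0.375.

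In ETV5 tumours against NPY tumours limma called 0% of 14023 genes (831 had an unadjusted p under 0.05), and DESeq2 called 56, none of them a member. Groups did not overlap in 12.6% of genes (5.8% higher, 6.82% lower) and in Sox2 among the 9 members tested, with a log2 fold change of 1.23 (SE 0.41, unadjusted p = 0.0209, adjusted p = 0.794). With the library code prefix and the control libraries added to the fit the Sox2 value was 0.88 (adjusted p = 0.988). Sox8 had 0.70 (SE 0.36, adjusted p = 0.798) with overlap. Sox1 did not pass the filter on low counts here. ETV5 and NPY tumours were each compared with the same control libraries, so their values for Sox1 are not independent of each other.

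The promoters of Sox2 and Sox8 are shown because the ETV5 and NPY libraries did not overlap for Sox2, and because Sox8 led the members in cortex and fell in tumours. That 1 of the 9 members tested did not overlap was near the 12.6% over all genes, and no test called Sox2 there. RefSeq promoters (GRCm38.p6) matched 7 of the 10 members, and each sequence is the 250 bases before the RefSeq start, with capitals at motif matches. Positions count from that start. The Sox2 window ends at 34649994, upstream of the GENCODE start of Sox2 at 34650405.
Sox2 promoter, chr3:34649745-34649994, plus strand: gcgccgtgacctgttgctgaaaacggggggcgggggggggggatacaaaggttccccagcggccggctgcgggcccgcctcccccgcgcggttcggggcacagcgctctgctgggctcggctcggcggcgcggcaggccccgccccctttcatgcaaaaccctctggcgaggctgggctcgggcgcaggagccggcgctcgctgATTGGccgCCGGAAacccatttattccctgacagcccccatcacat
Sox8 promoter, chr17:25570687-25570936, minus strand: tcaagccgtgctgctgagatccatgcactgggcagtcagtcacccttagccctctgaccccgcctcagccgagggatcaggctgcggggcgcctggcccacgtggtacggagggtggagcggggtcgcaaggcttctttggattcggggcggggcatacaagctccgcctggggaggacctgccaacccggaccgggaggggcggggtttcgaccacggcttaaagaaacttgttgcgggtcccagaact
Motifs were searched on both strands, each against 32851 promoter windows of the same length. Of the forms of the core that Sox proteins bind, ACAAT alone was searched, and it was found in 27.66% of these windows. A window without it may hold another form. The core of ETS factors, the family of ETV5, was searched as CCGGAA and was found in 12.03%. The motif of nuclear factor Y, the CCAAT box, was found in 33.85%, and the NF-kB consensus, the site of RELA, in 5.001%. Sox2 held an ETS core at -38 to -33 and an inverted nuclear factor Y motif at -46 to -42, without overlap between them. Sox8 held none of the 4 motifs as searched. The Sox2 window was 72% and the Sox8 window 65.6% G or C. Among the 7 members with a promoter, no other held an ETS core. These matches describe letters in a window, and a link of ETV5 to Sox2 was not tested.

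Genes that the glial Sox factors are known to act on or travel with were counted from lists chosen by known function. These and the other gene lists were chosen with earlier results of these data known, so their counts are descriptive. Of 13 myelin genes 12 fell and 1 rose in control tumours against cortex, with a median of -2.83, beside the rise of Sox10 and the fall of Sox8. The shares over all genes tested there were 36.2% called lower and 35.7% called higher. The gene that rose was Myrf, the myelin regulatory factor that works with Sox10, at 619.9, 264 and 433 CPM in ETV5 tumours, 395 CPM, 517 CPM and 359 CPM in NPY tumours, 397, 319 and 371 CPM in control tumours and 77.2, 53.3 and 67.2 CPM in cortex. Mog, a surface protein of mature myelin, fell by 3.44 in control tumours on the log2 scale (SE 0.18, adjusted p = 1.35e-06), with 3.94, 7.47 and 16.1 CPM in ETV5 tumours, 3.40, 4.14 and 14.5 CPM in NPY tumours, 31.9, 20.5 and 31.4 CPM in control tumours and 287, 221 and 291 CPM in cortex. The summed myelin level was 1671, 1570 and 2535 CPM in ETV5 tumours, 1100 CPM, 1153 CPM and 2097 CPM in NPY tumours, 4463, 2293 and 3958 CPM in control tumours and 19192, 15247 and 19228 CPM in cortex. None of the 13 genes had 0 reads in any group, and the part of mature oligodendrocytes in the Sox8 difference was not tested.

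Oligodendrocyte precursor genes split: of 10, 2 rose (Cspg4, C1ql1) and 4 fell (Olig1, Olig2, Gpr17, Neu4) in control tumours against cortex, with a median of -0.11. Of all genes tested there 35.7% were called higher and 36.2% lower, so the split was near the background. Gpr17, a receptor of differentiating precursors, fell by 1.55 on the log2 scale (SE 0.18, adjusted p = 7.09e-05) and was lower again in NPY tumours against control tumours (-1.12, SE 0.21, adjusted p = 0.0333), where 3 of the 10 were called, all lower. The other 2 were Neu4, a sialidase (-1.41, adjusted p = 0.0186), and Bcas1, a marker of newly forming oligodendrocytes (-1.37, adjusted p = 0.0122). In NPY tumours against control tumours 4.31% of all genes tested were called lower. The level of Gpr17 was 21.1, 13.2 and 75.0 CPM in ETV5 tumours, 35.0, 40.7 and 35.3 CPM in NPY tumours, 66.2, 84.5 and 110.4 CPM in control tumours and 249, 193 and 227 CPM in cortex. ETV5 replicate 3, the library with the most Sox10, also had the highest sum of the 10 genes, 985 CPM, beside 429 and 389 CPM in ETV5 replicates 1 and 2. The other tumour groups did not share that order. NPY replicate 1 had the most Sox10 of its group (216 CPM) and the lowest sum (352 CPM). Control replicate 1 had the least Sox10 of its group (161 CPM) and the highest sum (821 CPM). The relation of Sox10 to that sum was not tested.

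**Figure D4:**
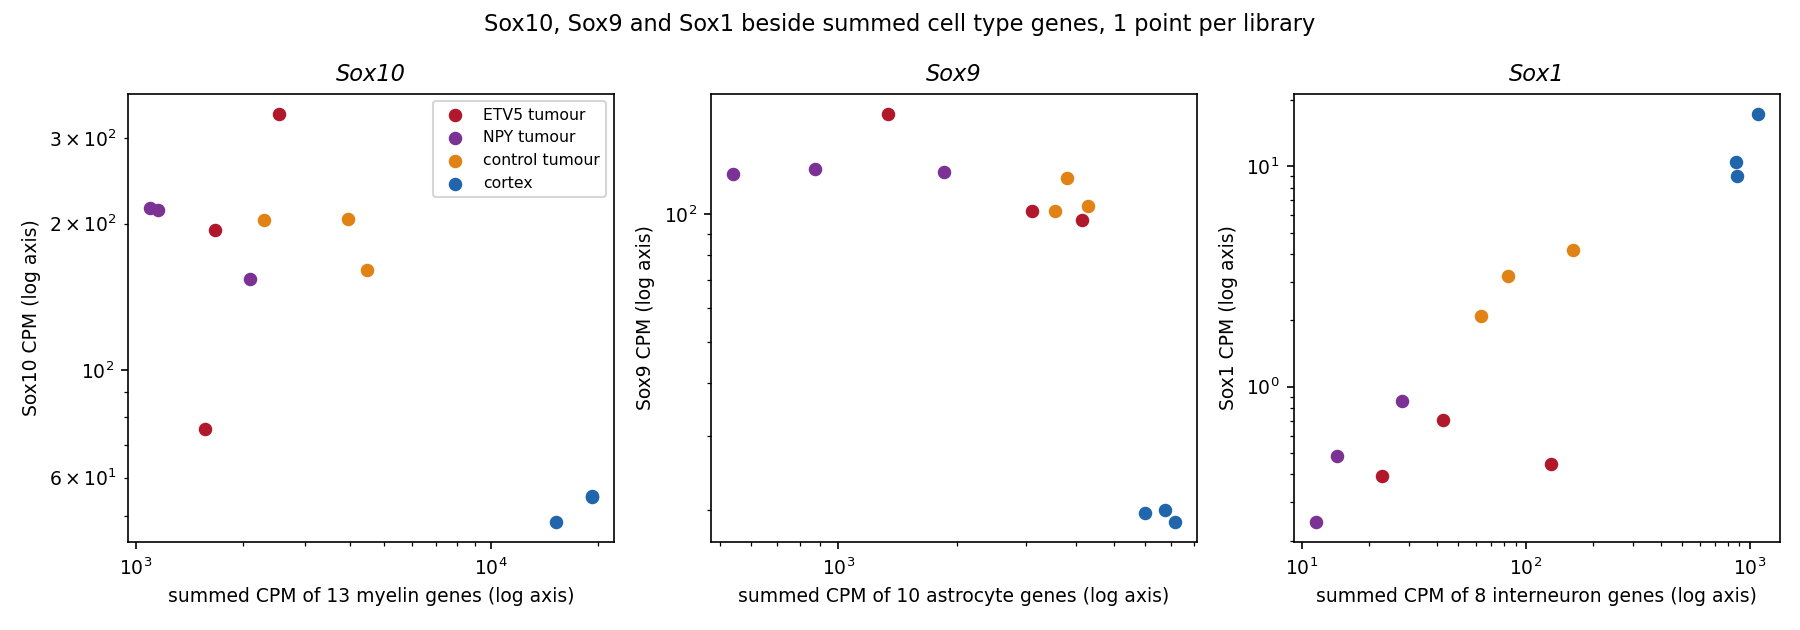
Level of Sox10, Sox9 and Sox1 (CPM, vertical log axes) beside the summed CPM of 13 myelin, 10 astrocyte and 8 interneuron genes (horizontal log axes), 1 point per library, coloured by group. Sox10 and Sox9 are higher, and the myelin and astrocyte sums lower, in each tumour library than in each cortex library, an order that does not hold within the ETV5 tumours for Sox10; cortex lies at 48.6 to 55.1 CPM of Sox10 and 18.8 to 20.0 CPM of Sox9, and Sox1 is highest in cortex, where the interneuron sum is highest.

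Of 10 astrocyte genes linked to Sox9, 2 rose (Nfia, Gfap) and 5 fell in control tumours against cortex, with a median of -0.17, beside the rise of Sox9. Among all genes tested there 35.7% were called higher and 36.2% lower. Gfap, an intermediate filament of astrocytes, had 514, 2271 and 2036 CPM in ETV5 tumours, 299, 249 and 1032 CPM in NPY tumours, 2600 CPM, 1744 CPM and 1903 CPM in control tumours and 342, 238 and 305 CPM in cortex. Slc1a2, the main glutamate transporter of astrocytes, fell by 2.93 in control tumours against cortex on the log2 scale (SE 0.14, adjusted p = 1.06e-06) and by 2.75 in NPY tumours against control tumours (SE 0.35, adjusted p = 0.0153). All 10 astrocyte genes lay lower in each NPY library than in each control library, and 2 of them, Slc1a2 and Apcdd1, were called, with a median of -1.25 beside 0.04 over all genes tested. Over all genes 15.8% lay lower without overlap and 4.31% were called lower in that comparison.

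Cartilage genes of the kind that Sox9, Sox5 and Sox6 activate together in chondrocytes were largely higher. Of 14 listed 12 were tested in control tumours against cortex, where 10 rose and Hapln1 fell, with a median of 3.78. The share of all genes called higher there was 35.7%. Acan, the cartilage proteoglycan aggrecan, had 298, 301 and 125 CPM in ETV5 tumours, 246, 207 and 280.4 CPM in NPY tumours, 98.4, 506 and 221 CPM in control tumours and 3.09, 2.18 and 3.76 CPM in cortex. Col2a1, the cartilage collagen, varied widely within tumour groups, at 9.97, 1.64 and 10.5 CPM in ETV5 tumours, 28.2, 4.14 and 748 CPM in NPY tumours, 14.1, 699 and 154 CPM in control tumours and 0.537, 0.503 and 0.418 CPM in cortex. Col2a1 was highest in NPY replicate 3 and control replicates 2 and 3, where Sox9 was at 126, 102 and 122 CPM. Sox9 was highest in ETV5 replicate 1, at 173 CPM, and the relation of Col2a1 to Sox9 was not tested.

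Genes of neural stem cells and radial glia, the setting of SoxB1 genes, were mostly higher, with 8 of 11 called higher and 2 lower (Slc1a3, Hes5) in control tumours against cortex and a median of 0.92. All genes tested there gave 35.7% called higher and 36.2% lower. Vim, an intermediate filament, had 1366, 1368 and 1433 CPM in ETV5 tumours, 1927, 1126 and 1633 CPM in NPY tumours, 2024, 1799 and 2120.3 CPM in control tumours and 41.9, 38.7 and 38.1 CPM in cortex. In NPY tumours against control tumours 2 of the 11 were called, both lower: Fabp7, the radial glial lipid-binding protein (-1.34, SE 0.28, adjusted p = 0.0459), and Slc1a3, a glial glutamate transporter (-2.48, SE 0.47, adjusted p = 0.0362). The share of all genes called lower there was 4.31%.

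Markers of other cell types also moved. In control tumours against cortex 9 of 10 endothelial genes rose (median 1.99), 9 of 10 microglia and macrophage genes rose (median 3.02), and 6 of 8 choroid plexus genes fell (median -4.17). Over all genes tested there 35.7% were called higher and 36.2% lower. The microglial gene called the other way was P2ry12 (-0.90, adjusted p = 0.000884), and the choroid plexus gene called the other way was Aqp1 (3.502, adjusted p = 0.000427). The summed choroid plexus level was 65.7, 42.8 and 152 CPM in control tumours and 1280, 1412 and 577 CPM in cortex. Cortex replicate 3 was thus well below the other cortex libraries, and the part of dissection in this difference was not tested. Of 9 further Sox genes 6 passed the filter in control tumours against cortex, where Sox7 (2.57), Sox13 (1.83) and Sox18 (2.44) rose, Sox21 fell (-1.82), and Sox12 and Sox17 were not called. Sox7 and Sox18, known as endothelial factors, were not called in NPY tumours against cortex (Sox7 1.496, adjusted p = 0.0624, and Sox18 1.15, adjusted p = 0.217), and Sox21 is a SoxB2 gene that counteracts SoxB1. Sox17, also an endothelial factor, did not share their rise. By limma it had 0.71 in control tumours against cortex (adjusted p = 0.199), -0.86 in ETV5 tumours (adjusted p = 0.243) and -0.48 in NPY tumours (adjusted p = 0.546). Sox7 was at 5.25, 47.2 and 6.20 CPM in ETV5 tumours, 1.21, 4.14 and 5.44 CPM in NPY tumours, 5.61, 8.26 and 6.22 CPM in control tumours and 1.48, 0.671 and 0.696 CPM in cortex, with ETV5 replicate 2 once more far above the rest. The summed endothelial level of that library was 391 CPM, beside 395 and 260 CPM in ETV5 replicates 1 and 3. The relation of Sox7 to that sum was not tested. Sox14, Sox15 and Sox30 had too few reads to be tested.

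The profile most like that of each member was searched among 12405 genes as the smallest root mean square difference of log2 levels over the 12 libraries, and Sox1 was too low to be searched. For Sox2 it was Dennd2a at 0.32, followed by Rom1 at 0.36 and Rnf31 at 0.39, and for Sox3 it was Prdm16 at 0.41. Sox4 and Sox10 had Lbh among their 3 nearest genes (0.16 from Sox4 and 0.29 from Sox10), and Sox4 was itself among the nearest of Sox10 at 0.29. The nearest genes were Jrk for Sox5 (0.20), Msantd2 for Sox6 (0.22), Chchd6 for Sox8 (0.19), Pald1 for Sox9 (0.13) and Srrt for Sox11 (0.11).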

How the data were processed

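PolyA RNA of 12 mouse libraries was sequenced as stranded paired-end libraries from 300 ng of total RNA, per the labels' protocols. Per the submitters' processing notes the build was mm10 and the tools included DESeq2 1.30.1, STAR 2.5.0a, MultiQC 1.6 and FastQC 0.11.7. No source used here gives the counting tool, its strand setting or the annotation. The authors deposited 2 tables of normalized signal, 1 of cortex, control and ETV5 libraries and 1 of control and NPY libraries. Each deposited value was a whole read count divided by 1 size factor per library: 100% of values came out whole within 0.01 read, and the control reads were identical in both tables. Dates stood in place of 27 symbols, and 2 names were repeated.

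The depth of 5962376 to 11291057 recovered reads sets the counting precision. Group and replicate came from the titles. Since the deposited values are not raw counts, the main test was limma 3.58.1 (trend, robust, two-sided) on log2(value + 1), not edgeR on counts, after the edgeR 4.0.16 filter (at least 10 reads, 15 in total). Fold changes are on that scale, which understates low genes. Adjusted p-values are Benjamini-Hochberg over all genes tested, called under 0.05. NPY against cortex or ETV5 used recovered reads divided by median-of-ratios factors over the libraries of both tables. Alternatives were pseudocounts 0.5 and 5, no filter, TMM and CPM scaling, edgeR, DESeq2 1.42.0, limma-voom, all groups in 1 fit, a replicate block, the library code prefix and leaving out each library. The prefix fits also held the cortex libraries for ETV5 against control tumours and the control libraries for ETV5 against NPY tumours. The tests were checked on simulated data. The members and gene lists were chosen with earlier results of these data known. Named list genes were among the up to 3 called per direction with the largest fold change and a mean of at least 5 CPM in control tumours against cortex, and called members of a list are also named. Sox2ot, Gm26735 and 2810468N07Rik were named for their overlap with a member, and Fabp7, Bcas1 and Apcdd1 for a count of 5 or fewer, after their values were seen. Promoters are credited to RefSeq, and gene positions to GENCODE M21.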

Additional observations from a re-analysis of the deposited data

How the results depend on the processing

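Of the 22 calls of members against cortex, 17 kept call and direction under each alternative tried and none reversed; the exceptions were Sox6 (control and NPY tumours), Sox2 (control tumours) and Sox4 and Sox10 (ETV5 tumours), given beside their values. Beyond leaving out libraries, the 7 members called in ETV5 tumours against cortex became 8 by CPM scaling, edgeR, DESeq2 and all groups in 1 fit, the 7 in NPY tumours became 6 with a pseudocount of 0.5, no low filter, limma-voom and all groups, and the 8 in control tumours became 7 with no low filter and limma-voom, 6 with all groups and 9 by CPM scaling. With 1 library left out they ran from 5 to 8 in ETV5, 6 to 7 in NPY and 7 to 8 in control tumours. Between tumours the count was moved by DESeq2, to 1 in ETV5 against control tumours and 2 in NPY against control tumours, and by a pseudocount of 5, to 1 in NPY against control tumours. Over all genes, DESeq2 called 76 in ETV5 against control tumours, 1833 in NPY against control tumours and 56 in ETV5 against NPY tumours, where limma called 0, 727 and 0. The library code prefix, in a fit that also held the cortex libraries, gave 12 calls in ETV5 against control tumours. In ETV5 against NPY tumours 1 gene was called without the low filter and 1 with all groups in the fit. Leaving out 1 library gave 1 to 571 calls in NPY against control tumours and 0 to 1 in ETV5 against NPY tumours. The causes were not tested.

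Values that changed sign were small in the main fit, though leaving out 1 library moved some of them much further from 0. For Sox5 against cortex, scaling by CPM gave 0.055 in ETV5, 0.11 in NPY and 0.045 in control tumours, and leaving out 1 library gave -0.36 to 0.16, -0.19 to 0.065 and -0.27 to 0.085. In ETV5 against control tumours Sox10 was 0.13 by edgeR and 0.12 by DESeq2 and ran between -0.67 and 0.44 with 1 library left out, and Sox2 ran between -0.31 and 0.41. Of the 19 values between tumours not printed singly, 16 had the opposite sign in at least 1 alternative and 0 were called in any.

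Deviations from the group mean were correlated to see whether replicate numbers pair the samples. Same-numbered libraries gave -0.36 to -0.03 between ETV5 and control tumours and -0.31 to 0.35 between NPY and control tumours. Different-numbered libraries gave -0.02 to 0.36 and -0.50 to 0.45. Against cortex, same-numbered values were -0.01 to 0.08 in control, -0.04 to 0.003 in ETV5 and 0.003 to 0.06 in NPY tumours. Different-numbered values there were -0.09 to 0.06, -0.01 to 0.05 and -0.05 to 0.009. These ranges do not settle whether the numbers pair samples. With the number as a replicate block the calls in NPY against control tumours were 264 in place of 727, and the members called stayed at 8 in control, 7 in ETV5 and 7 in NPY tumours against cortex. Fitting all groups was not run for NPY against control tumours, whose table holds those groups alone, and Sox1 had too few reads for ETV5 against NPY tumours. Depth limits Sox1 in ETV5 and NPY tumours and Sox3 in cortex, which rest on 2 to 9 reads a library.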

Other observations

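Sox13, a SoxD gene outside the members, was at 48.9, 20.2 and 31.2 CPM in ETV5 tumours, 35.5, 66.7 and 24.2 CPM in NPY tumours, 22.03, 29.1 and 22.2 CPM in control tumours and 6.58, 6.04 and 5.29 CPM in cortex, and its log2 fold change against cortex was 2.19 in ETV5 tumours (SE 0.34, adjusted p = 0.00145), 2.51 in NPY tumours (SE 0.37, adjusted p = 0.000677) and 1.83 in control tumours (SE 0.21, adjusted p = 6.62e-05) by limma. No tumour library fell into the cortex range. Sox21, the SoxB2 gene, was at 0.787, 1.94 and 1.95 CPM in ETV5 tumours, 1.09, 1.46 and 0.572 CPM in NPY tumours, 2.86, 3.85 and 4.15 CPM in control tumours and 10.9, 13.6 and 10.3 CPM in cortex. Like Sox1, it was highest in cortex and lower in each ETV5 and NPY library than in each control library, without passing the limma test against control tumours (ETV5 tumours -1.24, SE 0.48, adjusted p = 0.732; NPY tumours -1.67, SE 0.45, adjusted p = 0.083).

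Sox18 differed within NPY tumours, at 4.13, 1.83 and 19.3 CPM in replicates 1, 2 and 3, where the summed level of 10 endothelial genes was 211, 167 and 517 CPM. Sox18 and that sum were both highest in NPY replicate 3, and their relation was not tested. Sox14 had 0 reads in 11 of the 12 libraries and 4 reads in ETV5 replicate 3.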
